A study of Rattus norvegicus with 7 samples.

Results

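The adrenal gland of rats kept under the chronic variable stress (CVS) protocol was compared with that of control rats in 5 of the 7 RNA-sequencing libraries of the study, 2 from CVS and 3 from control animals. All animals were male Sprague-Dawley rats. Control rats were left unstressed and housed in groups of 3. CVS rats, housed in groups of 2 or 3 with frequent changes of cage mates, met 1 to 3 stressors a day for 3 weeks, from postnatal day 28 to 49, in an unpredictable order that included forced swimming, restraint, cold, heat, foot shock, deprivation of food or water, predators and their odors, and shifts of the light schedule. Glands were taken on postnatal day 50 or 51, in a 4-h window of the light phase. Each library held RNA pooled from 8 to 9 animals, so its value is a mean over a pool and the spread between libraries is a spread between pools. The other 2 libraries came from rats under the chronic shock (CS) protocol, in which rats lived singly on a metal grid for 3 weeks and met foot shocks at random times, and serve here only to ask whether a change in CVS differed from that in CS. Of the 32754 genes in the deposited counts, 14873 had at least 10 counts in at least 3 of the 5 libraries and were tested.

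The adrenal gland joins a cortex, which makes steroid hormones from cholesterol taken up as lipoprotein or stored as lipid droplets, to a medulla of chromaffin cells, which are innervated and release catecholamines. Under stress the pituitary hormone ACTH drives glucocorticoid synthesis in the cortex, and nerve input drives the medulla. The gland also holds its own circadian clock, in which the CLOCK or NPAS2 protein, joined to BMAL1, switches on the *Per*, *Cry*, *Nr1d1* and *Dbp* genes through E-box letters, PER and CRY proteins switch the pair off again, and REV-ERB alpha, the product of *Nr1d1*, represses a set of targets that includes *Npas2* and *Cry1*.

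In CVS, 13 genes fell and 1 rose at an adjusted p under 0.05. Those that fell included *Slc9a3*, a sodium-hydrogen exchanger, *Cd36*, a fatty acid and lipoprotein receptor, *Slc6a2*, the noradrenaline transporter, *Slc7a5*, a transporter of large neutral amino acids, and *Tubb3*, a neuronal tubulin. The gene that rose was *Cry1*, a repressor of the circadian clock. These 14 genes were 0.0941% of the 14873 tested with the quasi-likelihood test of edgeR, adjusted after Benjamini and Hochberg, with 0.0874% lower and 0.00672% higher. Without adjustment, 933 genes had a p under 0.05, 506 of them lower and 427 higher. Values are given as normalized CPM, which are counts scaled to an equal library total with edgeR's TMM factors, and fold changes as the log2 ratio of CVS to control with its standard error.

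Gene names came from the study's own lists of genes changed in CVS or CS, which cover 276 of the 14873 genes, and the other 14597 genes carry no name in the sources used here. None of the genes without a name was called (edgeR's smallest adjusted p among them was 0.152, with 751 at an unadjusted p under 0.05 and 2 called by DESeq2), but 578 of them passed with the replicate block described below. Because a gene has a name only if the study had called it on these same libraries, the share of named genes that moved in any group below is raised by the choice of names and is not independent evidence. The counts are therefore read one gene at a time.

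Total counts per library ranged from 20095746 to 32242123, and between 15.0% and 19.2% of them fell in the 10 highest genes. Control 1 shares the library code DM6 with CVS 1, Control 2 shares DM8 with CVS 2, and Control 3 has the code DM10. Along the leading principal component of the 5 libraries, with 37.2% of the variance, both DM8 libraries stood apart from the others. The second (29.0%) placed CVS 1 and CVS 2 below Control 2 and Control 3, with Control 1 between CVS 2 and Control 2. The gland was present in both its layers: *Cyp11b2*, the aldosterone synthase of the outer cortex, lay between 1695 and 2609 normalized CPM in the 5 libraries, and *Chgb*, the chromogranin B of chromaffin granules, between 1056 and 1244. Other layer markers, such as *Star* and *Th*, carry no name in the sources used here.

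The number of genes called moved with the model. With the shared code as a replicate block, 765 genes passed (5.14%), of which 434 were lower (2.92%) and 331 higher (2.23%), and all 14 genes called without the block were among them. The blocked fit has 1 residual degree of freedom against 3, and Control 3, with a code of its own, adds nothing to its contrast. Of these 765 genes, 753 differed in the same direction in both code pairs, against 8772 of all 14873 genes tested (59.0%). The blocked contrast is estimated within these pairs, so their agreement was largely set by the call itself. The normalized CPM of only 591 of the 765 did not overlap between the groups. A blocked call can rest on 1 library: ENSRNOG00000055956 passed (blocked edgeR adjusted p = 1.96e-15) with 48.1 normalized CPM in CVS 1 against 1.22 in CVS 2 and 1.17 to 2.10 in the controls. DESeq2's Wald test, the test of the study, called 120 genes (0.807%), 74 lower and 46 higher. Over all genes tested, the groups did not overlap for 3314 (22.3%), 1671 with CVS lower (11.2%) and 1643 with CVS higher (11.0%).

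Leaving out 1 library changed the edgeR count to 4 without Control 1, 7 without Control 2, 0 without Control 3 (654 genes at an unadjusted p under 0.05), 1 without CVS 1 and 16 without CVS 2. No single call below held without Control 3, and the adjusted p of the called genes then lay at 0.0585 or above. *Slc9a3* was called in the other 4 of these fits, AABR07063425.1 and *Cd36* in 3, *Cyp2a1* in 2, *Slc6a2* and *Cry1* in 1, and *Tubb3*, *Cdh8*, *Scgb1c1*, *Slc7a5*, *Fetub*, *Hoga1* and *Rprm* in none. The fits without CVS 1 or CVS 2 leave a single CVS library, which is then assumed to vary as the controls do.

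**Figure D1:**
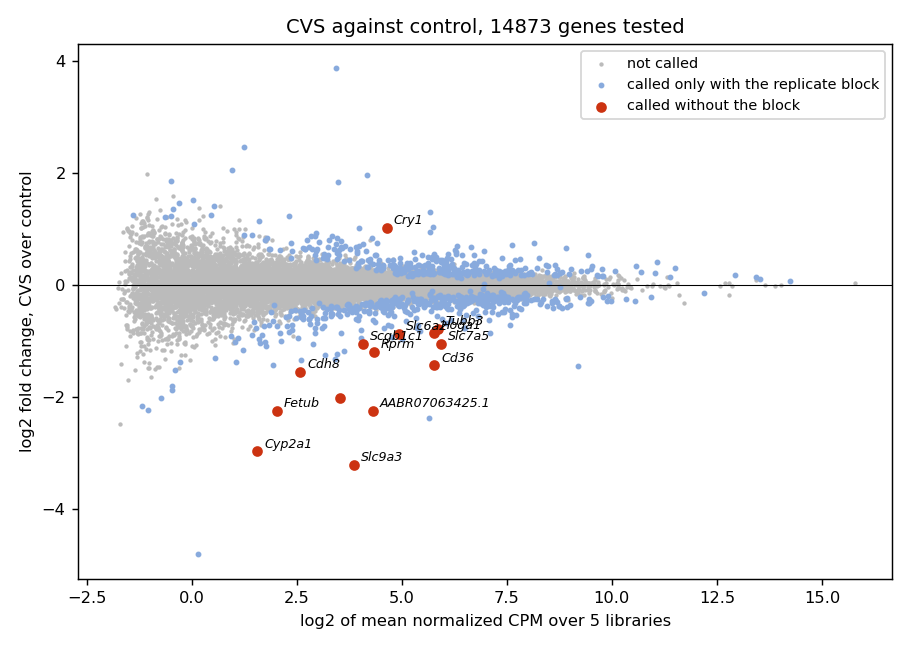
Log2 fold change of CVS over control (y axis) against the log2 of the mean normalized CPM over the 5 libraries (x axis) for the 14873 genes tested. Red points are the 14 genes called by edgeR without a block, 13 of them below 0, and blue points are genes called only with the replicate block.

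*Slc9a3* (ENSRNOG00000015159), which exchanges sodium for protons at the surface of epithelial cells, was the gene with the smallest p. It stood at 22.2, 25.1 and 20.0 normalized CPM in Control 1 to 3 and at 1.93 and 3.04 in CVS 1 and 2. The CVS level was 11.1% of the control mean, a log2 fold change of -3.21 (standard error 0.21, edgeR adjusted p = 0.00366). Behind these values were 464 to 742 counts in control and 61 and 60 in CVS libraries. The gap was seen within both codes, with a log2 ratio of -3.51 between CVS 1 and Control 1 and -3.03 between CVS 2 and Control 2.

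AABR07063425.1 (ENSRNOG00000046707) is annotated as a miRNA gene, although the libraries were made from polyadenylated RNA. It had 27.7, 34.0 and 25.3 normalized CPM in Control 1 to 3 and 5.09 and 7.31 in CVS 1 and 2. Both CVS libraries lay far below the lowest control, a log2 fold change of -2.25 (standard error 0.19, edgeR adjusted p = 0.0164). Its counts cannot tell a mature miRNA from a longer transcript over the same place.

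*Cyp2a1* (ENSRNOG00000020817), a cytochrome P450 that hydroxylates testosterone, stood at 3.95, 4.71 and 4.92 normalized CPM in the controls and at 0.696 and 0.406 in CVS. These are 132, 114 and 114 counts against 22 and 8, so the gene fails the study's stated filter of 10 counts in every library, and it is in the study's list for CS but not in that for CVS. Its log2 fold change was -2.97 (standard error 0.30, edgeR adjusted p = 0.0222). In all, 981 of the genes tested here fail that stricter filter, and *Cyp2a1* is the only one of them that was called, with 54 at an unadjusted p under 0.05. *Fetub* (ENSRNOG00000001806), which codes for the protease inhibitor fetuin-B, was nearly as low in CVS, with 6.91, 5.82 and 5.22 normalized CPM in control and 1.58 and 0.862 in CVS libraries. The log2 fold change was -2.24 (standard error 0.29, edgeR adjusted p = 0.0452).

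The 5 named genes nearest to the threshold on its inner side were *Slc7a5*, *Cry1*, *Fetub*, *Hoga1* and *Rprm*, all at an edgeR adjusted p of 0.0452. On the outer side, *Fxyd6*, *Per2*, *Cyp2t1* and *Thrsp* stood at 0.0634 and *Npas2* at 0.0698. Several of the groups below therefore have members on both sides of a threshold that separates them by little.

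**Figure D2:**
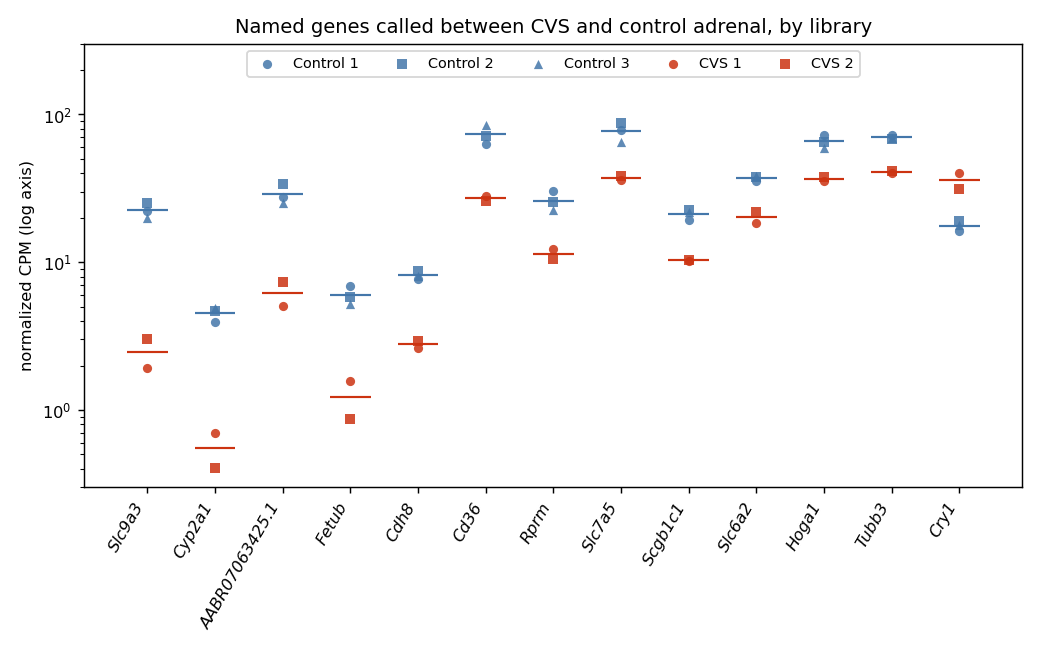
Normalized CPM (log axis) of 13 genes called between CVS and control, by library. Blue symbols are the 3 control and red symbols the 2 CVS libraries, lines are group means, and circles, squares and triangles mark the codes DM6, DM8 and DM10. The groups do not overlap for any of them, and *Cry1* is the 1 gene with CVS above control.

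The circadian clock. Of the 20 clock genes listed, 6 carry a name. *Cry1* rose, *Per2* and *Wee1* were higher and *Npas2*, *Nr1d1* and *Dbp* lower in CVS. The groups did not overlap for 5 of the 6, against 22.3% of all genes tested. Those 5 are in the study's CVS list, whose 124 genes all had no overlap in these libraries. The count of 5 was thus set by how genes got their names. So the repressors *Cry1* and *Per2* lay above control, and the activator *Npas2* and the repressor *Nr1d1* below it. The light schedule had been shifted in the CVS protocol, but per the study's methods not in the last 6 days. The part of that schedule in these values was not tested.

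*Cry1* (ENSRNOG00000006622) had 16.3, 18.9 and 17.9 normalized CPM in Control 1 to 3 and 40.2 and 31.4 in CVS 1 and 2, with the DM6 library the higher of the CVS pair. The level in CVS was 2.03-fold that of control, a log2 fold change of 1.02 (standard error 0.13, edgeR adjusted p = 0.0452). *Per2* (ENSRNOG00000020254), the second repressor, had 81.7, 85.3 and 74.8 in control and 135 and 121 in CVS libraries. Its log2 fold change of 0.67 (standard error 0.09) missed the threshold (edgeR adjusted p = 0.0634) and passed with the replicate block (edgeR adjusted p = 3.02e-11).

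*Npas2* (ENSRNOG00000013408), the partner of BMAL1, had 14.1, 14.9 and 13.5 normalized CPM in control and 4.97 and 7.20 in CVS libraries. The log2 fold change was -1.23 (standard error 0.18, edgeR adjusted p = 0.0698, and 2.24e-11 with the block). *Wee1*, a kinase that holds back mitosis and is driven by the clock in liver, lay between 33.1 and 35.3 in control and at 46.0 and 48.3 in CVS libraries, a log2 fold change of 0.46 (edgeR adjusted p = 0.163, and 1.88e-05 with the block).

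*Nr1d1* and *Dbp*, like *Cry1*, *Per2* and *Npas2*, differed more between the CVS libraries than the controls did among themselves. *Nr1d1* stood at 162, 168 and 171 normalized CPM in control, 68.0 in CVS 1 and 118 in CVS 2 (log2 fold change -0.85, edgeR adjusted p = 0.314, and 1.34e-15 with the block). *Dbp*, a transcription factor of clock output, stood at 473, 512 and 429 in control, 258 in CVS 1 and 472 in CVS 2, so only CVS 1 was below control. Its log2 ratio was -0.88 within code DM6 and -0.12 within DM8 (edgeR adjusted p = 0.882 without the block and 3.58e-07 with it). In all 6 clock genes except *Wee1*, the CVS library of code DM6 lay farther from the control mean than that of DM8.

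To set these genes beside their sequence, the 250 bases before the start of each gene were read from RefSeq promoters of build GRCr8, which held 96 windows for 85 of 121 symbols of the study's CVS list. *Per2* and *Nr1d1* are shown as the clock genes in which a motif below was found, and *Slc9a3* and *Slc7a5* as called genes that hold an E-box. The windows read for *Npas2* and *Dbp* held none of these motifs. *Cry1* and *Wee1* were not among the genes with one of them, and not every symbol had a window. Capitals mark an E-box (CACGTG), the related E-prime box (CACGTT) or a D-box (TTATGTAA), searched on both strands, with sequences written from 5′ to 3′ on the strand of the gene.
Per2, chr9:99496994-99497243, minus strand: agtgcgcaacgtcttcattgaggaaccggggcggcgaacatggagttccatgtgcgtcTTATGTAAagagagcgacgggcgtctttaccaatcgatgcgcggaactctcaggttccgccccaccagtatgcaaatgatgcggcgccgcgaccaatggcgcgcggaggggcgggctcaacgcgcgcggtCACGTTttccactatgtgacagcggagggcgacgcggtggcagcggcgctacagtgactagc
Nr1d1 first start, chr10:84231813-84232062, minus strand: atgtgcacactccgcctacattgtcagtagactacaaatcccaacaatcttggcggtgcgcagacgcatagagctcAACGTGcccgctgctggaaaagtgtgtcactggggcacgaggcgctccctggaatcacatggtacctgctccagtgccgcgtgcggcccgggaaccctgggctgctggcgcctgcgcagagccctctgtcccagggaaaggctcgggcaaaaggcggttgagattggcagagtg
Nr1d1 second start, chr10:84229455-84229704, minus strand: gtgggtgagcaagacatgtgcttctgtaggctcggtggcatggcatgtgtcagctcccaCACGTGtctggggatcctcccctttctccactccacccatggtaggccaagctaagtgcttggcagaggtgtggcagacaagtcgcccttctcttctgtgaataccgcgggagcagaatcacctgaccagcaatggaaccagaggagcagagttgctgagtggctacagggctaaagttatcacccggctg
Slc9a3, chr1:30996003-30996252, minus strand: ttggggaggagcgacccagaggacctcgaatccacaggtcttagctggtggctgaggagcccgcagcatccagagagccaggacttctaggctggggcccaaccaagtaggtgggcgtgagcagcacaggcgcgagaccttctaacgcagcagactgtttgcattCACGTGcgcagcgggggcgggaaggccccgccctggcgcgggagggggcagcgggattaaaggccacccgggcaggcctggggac
Slc7a5, chr19:66872413-66872662, minus strand: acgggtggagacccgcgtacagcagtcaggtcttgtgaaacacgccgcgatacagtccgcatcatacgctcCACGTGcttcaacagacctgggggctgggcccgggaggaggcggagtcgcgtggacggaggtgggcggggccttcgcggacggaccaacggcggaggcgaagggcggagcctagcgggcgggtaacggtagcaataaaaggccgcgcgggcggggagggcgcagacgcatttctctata

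In the window of *Per2*, the E-prime box begins 62 and the D-box 192 bases before the start. The first window of *Nr1d1* has an E-prime box on the opposite strand, where it reads AACGTG, 174 bases before the start, and the second an E-box 191 bases before it. The E-box lies 85 bases before the start of *Slc9a3* and 179 before that of *Slc7a5*, both of which fell. Across all 33469 promoter windows of this length, 5.59% held an E-box, 4.07% an E-prime box and 0.828% a D-box. Among the 96 windows of the CVS list the shares were 6.25% (6 windows), 7.29% (7 windows of 5 genes) and 1.04% (1 window). With 7 or fewer windows each, these shares are given as a description, and a match is a run of letters and not a measured binding site.

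Uptake, synthesis and storage of lipid. Of 24 genes listed 15 carry a name, 10 of them in the study's CVS list, and 1 of the 15, *Cd36*, fell (edgeR, without the block). With the block 7 were lower, 5 higher and 3 did not pass. The 7 lower genes were *Cd36*, *Stard10*, *Vldlr*, *Apoc4*, *Gpd1l*, *Dgat2* and *Gpd1*, and the 5 higher ones *Thrsp*, *Scd*, *Sgms2*, *Sptssb* and *Fasn*. The median log2 fold change of the 15 genes was 0.02, and that of all 14873 genes was -0.0007.

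*Cd36* (ENSRNOG00000040108) stood at 63.6, 71.8 and 84.7 normalized CPM in Control 1 to 3 and at 28.1 and 25.9 in CVS 1 and 2. Every control stood well above both CVS libraries, with a log2 fold change of -1.44 (standard error 0.13, edgeR adjusted p = 0.0173). *Thrsp* (ENSRNOG00000012404), a nuclear protein that promotes lipogenesis, stood at 4.40, 4.54 and 7.73 in control and at 23.1 and 16.2 in CVS libraries. The log2 fold change was 1.84 (standard error 0.26, edgeR adjusted p = 0.0634, and 5.38e-22 with the block).

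*Scd*, the desaturase that makes oleate from stearate, had 37.0, 28.4 and 31.5 normalized CPM in control and 98.0 and 61.4 in CVS libraries. CVS 1 stood well above CVS 2, and both above every control, with a log2 fold change of 1.30 (standard error 0.19, edgeR adjusted p = 0.0749, and 7.31e-24 with the block). *Stard10*, a phospholipid transfer protein, had 185, 193 and 203 in control and 140 and 138 in CVS libraries, a log2 fold change of -0.48 (edgeR adjusted p = 0.135, and 3.70e-07 with the block). *Slc9a3*, *Cd36*, *Thrsp*, *Scd* and *Cdh8* are members of the stress-sensitive gene expression index that the study built on genes changed in both protocols, so their direction here was part of how they were chosen.

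*Sptssb*, which codes for a small subunit of serine palmitoyltransferase, had the highest log2 fold change of the list, 2.05 (standard error 0.50, edgeR adjusted p = 0.342, and 4.78e-08 with the block), at low levels of 0.359, 1.03 and 1.21 normalized CPM in control and 2.28 and 4.82 in CVS libraries. Of the other named members, *Fasn*, *Acsl1*, *Ldah* and *Dgat1* had overlapping groups, with log2 fold changes between 0.02 and 0.33. *Dgat1*, which catalyses the last step of triglyceride synthesis, stood at 38.6, 55.3 and 51.8 normalized CPM in control and 45.4 and 53.3 in CVS libraries. *Dgat2*, a second enzyme for that step, stood at 73.9, 70.9 and 51.1 against 34.1 and 41.7.

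**Figure D3:**
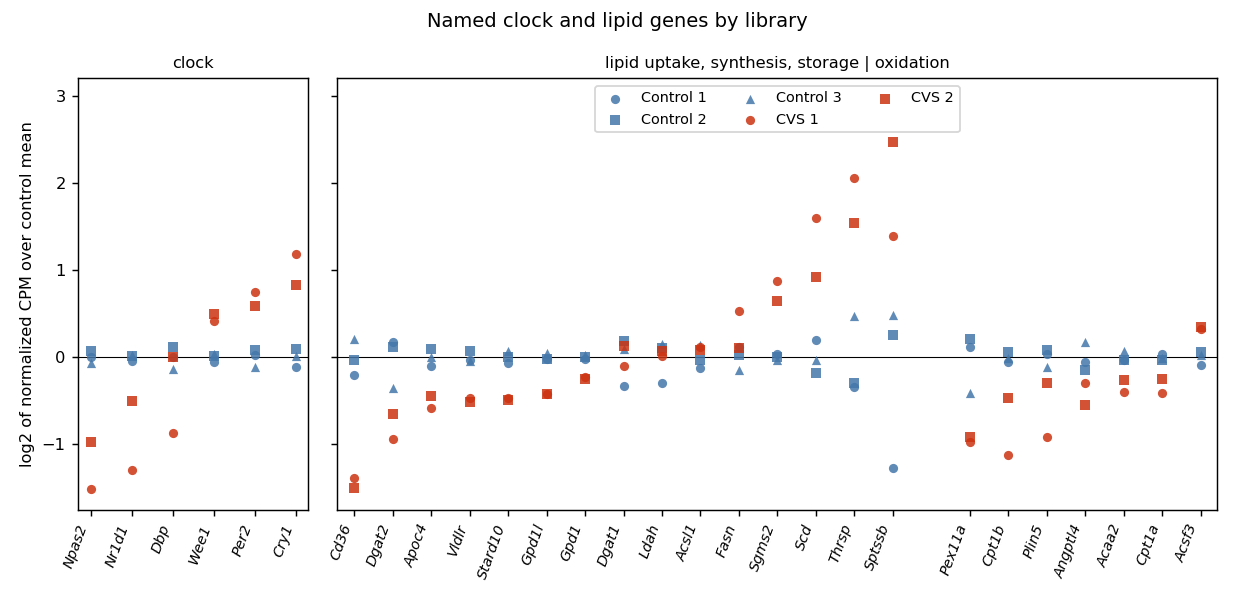
Log2 of the normalized CPM of each library over the control mean (y axis) for named genes of the clock (left) and of lipid uptake, synthesis and storage, then fatty acid oxidation (right). Blue symbols are control and red symbols CVS libraries. *Cry1*, *Per2*, *Thrsp* and *Scd* lie above 0 in both CVS libraries and *Npas2*, *Cd36* and *Pex11a* below 0, while *Dbp* is low in CVS 1 only.

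Fat cells around the gland express several of the same genes, so markers of other cell types were read beside them. The 9 named white adipocyte genes, of 12 listed, all had a positive log2 fold change in CVS (0.10 to 0.94, median 0.64), and none was called. Only 1 of the 9 is in the study's CVS list, and the others got their names from its CS list. The summed level of the 9 was 66.2 to 105 normalized CPM in control and 136 and 145 in CVS libraries. Of this sum *Car3* makes up a large share in every library. No named marker was at 0 in any library. With the block 5 of the 9 passed, and *Car3*, a carbonic anhydrase abundant in fat, had the smallest p, with 36.4, 28.6 and 46.2 in control and 74.0 and 68.4 in CVS libraries (edgeR adjusted p = 0.152, and 3.64e-21 with the block). *Adipoq*, the adipocyte hormone adiponectin, stood at 9.25, 8.22 and 11.5 against 16.9 and 13.4 (edgeR adjusted p = 0.364, and 6.03e-06 with the block). Next by p were *Fabp4*, a fatty acid carrier of fat cells, at 9.45 to 16.7 against 20.1 and 18.5, and *Retn*, the hormone resistin, at 1.71 to 2.07 against 2.82 and 3.15. The part of fat tissue in the values of *Thrsp* and *Scd* was not tested, and in these pooled glands more cells of a type and more RNA per cell cannot be told apart. *Cd36* went the other way from this list.

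The 3 named genes of brown fat and striated muscle, of 12 listed, were all lower in CVS, and none was called without the block. All 3 are in the study's CVS list. Their summed level was 138 to 155 normalized CPM in control and 85.2 and 93.5 in CVS libraries. *Cox8b*, a heart and brown fat subunit of cytochrome c oxidase, stood at 27.6, 34.2 and 39.8 against 15.5 and 20.2 (edgeR adjusted p = 0.179, and 8.85e-10 with the block). *Myom2*, a protein of the muscle M band, stood at 92.8, 73.7 and 86.5 against 56.6 and 52.8 (edgeR adjusted p = 0.151, and 1.16e-09 with the block). The third, *Cpt1b*, is also a gene of fatty acid oxidation.

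Fatty acid oxidation and ketone synthesis. Of 24 genes listed 7 are counted here, none was called without the block, and with it 6 were lower and 1 higher. All 7 had no overlap between the groups, against 22.3% of all genes tested, and their median log2 fold change was -0.41. Of the 7, 5 are in the study's CVS list, whose 124 genes all had no overlap. The count and the median therefore largely follow from how genes got their names.

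*Cpt1b*, the muscle form of the enzyme that loads fatty acids for entry into mitochondria, stood at 27.6, 29.7 and 28.4 normalized CPM in control and at 13.1 and 20.6 in CVS libraries (log2 fold change -0.77). *Cpt1a*, the liver form, was more abundant in counts and changed less, with 426, 404 and 411 against 311 and 347 (log2 fold change -0.33). *Pex11a*, which drives the division of peroxisomes, stood at 22.0, 23.5 and 15.2 against 10.3 and 10.7 (log2 fold change -0.95). The exception was *Acsf3*, a mitochondrial malonyl-CoA synthetase, at 110, 121 and 118 against 146 and 148 (log2 fold change 0.34). Adjusted p values of these 4 genes lay between 0.191 and 0.363 with edgeR without the block.

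Steroid synthesis and its cholesterol supply. Only 5 of 25 genes listed carry a name, none was called without the block, and with it 3 were lower and 2 higher. Of these 5, 4 are in the study's CVS list. *Cyp11b2* stood at 1695, 1934 and 2114 normalized CPM in Control 1 to 3 and at 2609 and 2474 in CVS 1 and 2, above every control, with a log2 fold change of 0.41 (standard error 0.11, edgeR adjusted p = 0.363, and 1.03e-10 with the block). *Nr0b1*, which codes for DAX-1, a repressor of steroidogenic genes, stood at 29.4, 35.2 and 31.4 against 20.1 and 18.5 (log2 fold change -0.73, standard error 0.11, edgeR adjusted p = 0.0924, and 3.25e-08 with the block). Within codes DM6 and DM8 the log2 ratios were 0.62 and 0.36 for *Cyp11b2* and -0.55 and -0.93 for *Nr0b1*.

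*Cyp27a1*, a sterol 27-hydroxylase, stood at 197, 182 and 157 normalized CPM in control and at 116 and 133 in CVS libraries (log2 fold change -0.52, edgeR adjusted p = 0.299). *Akr1c14*, a hydroxysteroid dehydrogenase, stood at 8.83, 10.2 and 9.07 against 5.79 and 4.41 (log2 fold change -0.86, edgeR adjusted p = 0.191). *Scarb1*, the receptor that takes up cholesterol from HDL, overlapped between the groups (log2 fold change 0.29, edgeR adjusted p = 0.829), with the highest value in CVS 1. The one named gene of the glucocorticoid response list, *Klf15*, and the one of the immediate early list, *Egr1*, overlapped too, with log2 fold changes of -0.16 and 0.01.

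Chromaffin cells, nerve and glia. Among 4 named chromaffin genes of 18 listed, *Slc6a2* fell, and with the block 1 was lower, 1 higher and 2 did not pass. Of these 4, 2 are in the study's CVS list. *Slc6a2* (ENSRNOG00000016311) had 35.7, 37.6 and 38.2 normalized CPM in Control 1 to 3 and 18.5 and 22.0 in CVS 1 and 2, with a narrow spread in control. The log2 fold change was -0.88 (standard error 0.11, edgeR adjusted p = 0.0452). The abundant granule protein *Chgb* did not follow it, with 1104, 1170 and 1244 against 1201 and 1056 (log2 fold change -0.05, standard error 0.10).

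*Pdyn*, the precursor of dynorphin peptides, stood at 40.6, 39.0 and 47.5 normalized CPM in control and at 54.7 and 64.8 in CVS libraries (log2 fold change 0.49, edgeR adjusted p = 0.325, and 4.70e-08 with the block). *Ptprn*, a protein of dense-core vesicles, stood at 29.6 to 30.7 in control and at 35.6 and 35.5 in CVS (log2 fold change 0.24, edgeR adjusted p = 0.619). The summed level of the 4 genes, which *Chgb* dominates, was 1209 to 1360 in control and 1178 and 1310 in CVS libraries.

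All 12 named genes of nerve and glia, of 21 listed, are in the study's CVS list. *Tubb3* and *Cdh8* fell, and with the block 9 were lower and 3 higher. *Tubb3* (ENSRNOG00000017209) was steady within each group, at 72.9, 68.3 and 69.1 normalized CPM in control and 40.1 and 41.2 in CVS (log2 fold change -0.79, standard error 0.08, edgeR adjusted p = 0.0258). *Cdh8* (ENSRNOG00000056643), a cadherin of neuronal contacts, had 7.66, 8.67 and 8.07 in control and 2.63 and 2.94 in CVS libraries (log2 fold change -1.55, standard error 0.17, edgeR adjusted p = 0.0287).

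Genes of glia did not share a direction. *S100b*, a calcium-binding protein of glial and sustentacular cells, stood at 17.9, 14.6 and 17.7 normalized CPM in control and at 27.0 and 29.7 in CVS libraries (log2 fold change 0.76, edgeR adjusted p = 0.101, and 3.54e-08 with the block). *Slc1a3*, a glial glutamate transporter, stood at 41.0, 38.4 and 39.7 against 24.6 and 15.8, and *Kcnt1*, a sodium-activated potassium channel of neurons, at 7.69, 8.09 and 7.12 against 14.6 and 13.2 (log2 fold change 0.87, edgeR adjusted p = 0.0801). The summed level of the 12 genes was 1073 to 1109 in control and 877 and 856 in CVS libraries. Most of that sum comes from members of the list whose levels are not given here.

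**Figure D4:**
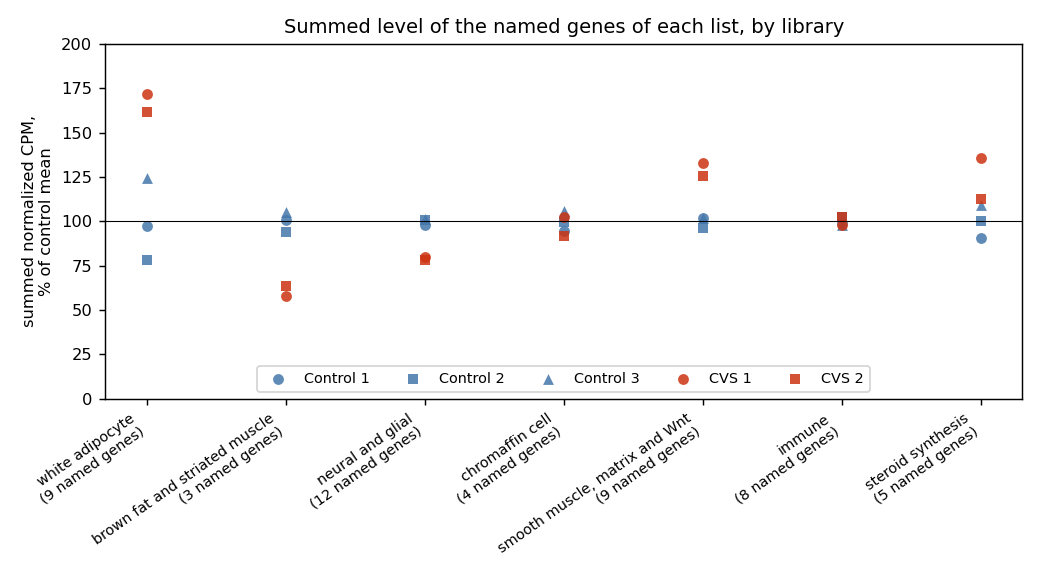
Summed normalized CPM of the named genes of 7 lists, as a percentage of the control mean (y axis), by library. Blue symbols are control and red symbols CVS libraries. Both CVS libraries lie above every control for white adipocyte genes, whose sums before this scaling were 136 and 145 normalized CPM in CVS and 66.2 to 105 in control. They lie below every control for brown fat and muscle genes (85.2 and 93.5 against 138 to 155 normalized CPM before scaling), while chromaffin and immune sums overlap. The CVS sums also lie above every control for steroid synthesis genes (6491 and 5388 against 4343 to 5215) and matrix genes (1817 and 1712 against 1315 to 1391). For neural and glial genes they lie below every control (877 and 856 against 1073 to 1109).

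Amino acid transport and polyamines. Of 19 genes listed 8 carry a name, 5 of them in the study's CVS list. *Slc7a5* fell, and with the block 4 were lower, 1 higher and 3 did not pass. *Slc7a5* (ENSRNOG00000018824), which brings leucine and other large amino acids into the cell, had 78.3, 88.1 and 65.2 normalized CPM in Control 1 to 3 and 36.1 and 38.3 in CVS 1 and 2. Control 3 was the lowest control and still far above CVS, with a log2 fold change of -1.05 (standard error 0.13, edgeR adjusted p = 0.0452).

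*Odc1* and *Amd1*, which code for the rate-limiting enzymes of polyamine synthesis, were both lower in CVS. *Odc1* stood at 197, 211 and 228 normalized CPM against 144 and 167 (log2 fold change -0.45), and *Amd1* at 212, 230 and 231 against 171 and 176 (log2 fold change -0.37). *Phgdh*, the first enzyme of serine synthesis, stood at 83.1, 68.4 and 65.8 against 52.2 and 42.3 (log2 fold change -0.61), and *Mthfd1l*, of mitochondrial folate metabolism, at 15.8, 14.7 and 13.3 against 23.8 and 20.7 (log2 fold change 0.61). None of them was called without the block (edgeR adjusted p from 0.199 to 0.308).

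Growth arrest and the cell cycle. Of 12 genes listed 5 carry a name, all 5 in the study's CVS list. *Rprm* fell, and with the block 3 were lower and 2 higher. *Rprm* (ENSRNOG00000005109), which codes for Reprimo, a p53 target that halts cells before mitosis, had 30.1, 25.6 and 22.4 normalized CPM in control and 12.2 and 10.4 in CVS libraries (log2 fold change -1.20, standard error 0.15, edgeR adjusted p = 0.0452). *Cdkn1c*, the inhibitor of cyclin-dependent kinases p57, was higher in CVS, with 105, 111 and 101 against 139 and 144 (log2 fold change 0.42, edgeR adjusted p = 0.183). *Gas2*, a cytoskeletal protein first found in arrested cells, stood at 20.5, 27.4 and 23.9 against 13.0 and 17.2 (log2 fold change -0.67, edgeR adjusted p = 0.342).

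Retinoid and xenobiotic metabolism. Of 14 genes listed 11 carry a name, 9 of them in the study's CVS list. *Cyp2a1* fell, and with the block 7 were lower and 4 higher. *Cyp2t1*, a cytochrome P450, stood at 50.0, 54.0 and 43.9 normalized CPM in control and at 29.0 and 28.5 in CVS libraries (log2 fold change -0.78, standard error 0.11, edgeR adjusted p = 0.0634). *Cyp4f4*, of a family that hydroxylates fatty acids and eicosanoids, stood at 14.7, 14.1 and 14.3 against 8.63 and 7.10 (log2 fold change -0.86, edgeR adjusted p = 0.0924). *Aldh1a3*, which makes retinoic acid, stood at 105, 120 and 98.8 against 56.5 and 70.7 (log2 fold change -0.77, edgeR adjusted p = 0.119).

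Matrix, smooth muscle and Wnt. The 9 genes counted here, of 16 listed, are all in the study's CVS list, none was called without the block, and with it 3 were lower and 6 higher. *Fgf7*, a growth factor that stroma sends to epithelium, stood at 11.9, 10.5 and 13.0 normalized CPM in control and at 4.21 and 5.78 in CVS libraries (log2 fold change -1.26, edgeR adjusted p = 0.0749). In the opposite direction, *Nid1*, a protein of basement membranes, stood at 388, 370 and 410 against 694 and 540 (log2 fold change 0.67, edgeR adjusted p = 0.135). *Tagln*, a marker of smooth muscle, stood at 135, 114 and 139 against 90.5 and 85.6 (log2 fold change -0.55, edgeR adjusted p = 0.179). *Fzd6*, a Wnt receptor, stood at 67.3, 59.3 and 62.2 against 90.6 and 83.3 (log2 fold change 0.47, edgeR adjusted p = 0.183). The summed level of the 9 genes was 1315 to 1391 in control and 1817 and 1712 in CVS libraries, of which *Nid1* and the Wnt carrier *Wls* make up a large share.

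Immune genes were few: 8 of 14 listed carry a name, none was called without the block, and with it 3 were lower, 3 higher and 2 did not pass. Of these 8, 5 are in the study's CVS list. *Il33*, an alarm cytokine, stood at 21.3, 18.3 and 19.7 normalized CPM in control and at 11.4 and 11.2 in CVS libraries (log2 fold change -0.81, edgeR adjusted p = 0.0749). *Il23r*, a cytokine receptor, stood at 7.03, 7.60 and 6.69 against 3.35 and 4.01. *Mrc1*, the mannose receptor of macrophages, was higher, at 54.5, 61.1 and 58.4 against 85.9 and 75.8 (log2 fold change 0.48, edgeR adjusted p = 0.183), and *Ackr3*, a scavenger receptor for chemokines, stood at 4.49, 6.19 and 5.31 against 9.33 and 10.3. Summed levels of the 8 genes overlapped, at 590 to 616 in control and 588 and 617 in CVS libraries.

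Of the called genes outside these lists, *Scgb1c1* (ENSRNOG00000012847), a small secreted protein of the secretoglobin family, had 19.4, 22.7 and 22.0 normalized CPM in control and 10.2 and 10.4 in CVS libraries (log2 fold change -1.05, standard error 0.12, edgeR adjusted p = 0.0359). *Hoga1* (ENSRNOG00000029501), a mitochondrial aldolase of hydroxyproline breakdown, had 72.7, 65.4 and 59.2 against 35.3 and 37.8 (log2 fold change -0.85, standard error 0.11, edgeR adjusted p = 0.0452). *Fxyd6*, a regulator of the sodium pump, lay just outside the threshold with a log2 fold change of -0.62. Over all 15 lists, 7 of the 102 genes counted here fell and 1 rose, and with the block 51 were lower and 35 higher. Of all 14873 genes tested, 0.0941% were called without the block and 5.14% with it. However, 73 of the 102 are in the study's CVS list, whose 124 genes all passed with the block. These counts therefore largely follow from how genes got their names.

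**Figure D5:**
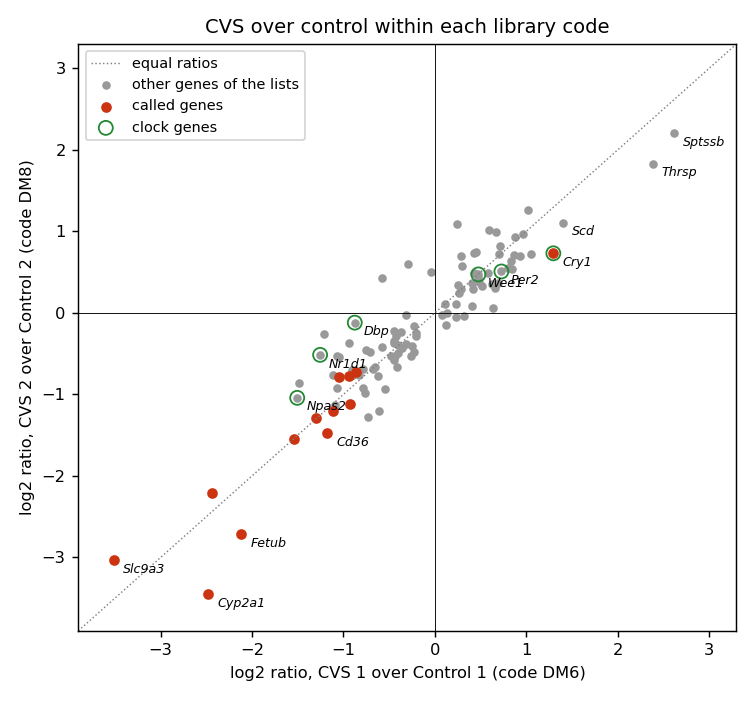
Log2 ratio of CVS 2 to Control 2 (code DM8, y axis) against that of CVS 1 to Control 1 (code DM6, x axis) for the named genes of the lists (grey) and the named genes called (red), with clock genes circled. *Slc9a3* lies at -3.51 and -3.03, and *Dbp* at -0.88 and -0.12. The names come from lists that the study called on these libraries.

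The change in CVS was then set against CS, with values scaled over all 7 libraries. No gene differed between the 2 CVS and 2 CS libraries with edgeR (0.0% of 14873 genes called), with 1058 genes at an unadjusted p under 0.05. DESeq2's Wald test called 39 genes (0.262%), 6 higher and 33 lower in CVS. Among these were *Slc7a5*, *Per2* and *Fxyd6* of the study's CVS list. *Slc7a5* had a mean of 37.0 normalized CPM in CVS and 59.0 and 66.0 in CS 1 and 2, a log2 difference between CVS and CS of -0.76 (standard error 0.10, edgeR adjusted p = 0.473, DESeq2 adjusted p = 0.000534). *Per2* had a mean of 128 in CVS and 81.5 and 82.3 in CS, a log2 difference of 0.64 (standard error 0.10, edgeR adjusted p = 0.590, DESeq2 adjusted p = 0.00211). *Fabp4*, *Dgat1* and *Ldah*, which are not in that list, were also among the 39 and were lower in CVS than in CS.

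Values against CS follow for the called genes *Rprm*, *Hoga1*, *Fetub*, *Slc9a3* and *Cry1*, and for *Npas2*, which was not called against control. *Rprm* had a mean of 11.3 normalized CPM in CVS and 12.5 and 11.6 in CS (log2 difference -0.09, standard error 0.15), *Hoga1* 36.3 against 42.6 and 38.5 (log2 difference -0.16, standard error 0.11), and *Fetub* 1.21 against 1.69 and 1.34 (log2 difference -0.29, standard error 0.39). *Slc9a3* had 2.47 against 5.45 and 3.46, a log2 difference of -0.88 (standard error 0.33, edgeR adjusted p = 0.672). *Cry1* had 35.6 against 22.3 and 29.8, and *Npas2* 6.04 against 7.77 and 10.2. None of these differences passed edgeR's test without a block or DESeq2's test.

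With the replicate number as a block, 465 of the 14873 genes (3.13%) differed between CVS and CS, 154 higher and 311 lower in CVS, although for this pair of groups the numbers do not match the library codes. Among them were 4 of the 14 genes called against control, *Slc7a5* (edgeR adjusted p with the block = 0.000166), *Scgb1c1* (0.00913), *Cd36* (0.0463) and AABR07063425.1 (0.0476), all lower in CVS, and *Per2* (0.000235) and *Fxyd6* (0.000988) passed too. *Slc9a3*, *Cry1* and *Npas2* did not pass with this block either (edgeR adjusted p = 0.126, 0.0875 and 0.0724).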

How the data were processed

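The authors enriched polyadenylated RNA, prepared directional libraries, sequenced single reads of 50 bases, mapped them to Rnor_6.0 with Rsubread and deposited raw featureCounts counts per Ensembl gene. The strand setting, annotation release and tool versions are not given in the sources used here, so reads of overlapping or near-identical genes may be mixed. Groups were taken from the sample labels. The members and gene lists were chosen with earlier results of these data known, and symbols were read from the study's own lists of changed genes.

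Genes with 10 counts in at least 3 of the 5 libraries were scaled by TMM and compared by the quasi-likelihood test of edgeR 4.0.16, run in R 4.3.3 with limma 3.58.1, with the group as the only term and Benjamini-Hochberg adjustment over all genes, and called at an adjusted p under 0.05. Total counts of 20095746 to 32242123 set the precision. DESeq2 1.42.0, other filters and scalings, a fit of all 7 libraries, the replicate block and fits without each library were the alternatives. Ratios within a code were added after the data were seen and used 0.5 added counts. Tables and figures used Python 3.11.15, numpy 2.4.6, pandas 2.3.3 and matplotlib 3.10.9. The fits were also run on 4 simulated data sets with 200 genes changed by a log2 of 1. Without the block 72.25% of these genes were recovered. Of the calls 8.11% were false, more than the adjusted p threshold of 0.05 allows for. The outcome with the block is not given here.

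Libraries with a shared code were taken to be paired, since their deviations from the group means correlated across genes. The correlations were 0.391 (Control 1 and CVS 1), 0.376 (Control 2 and CVS 2), 0.295 (Control 1 and CS 1), 0.259 (CVS 1 and CS 1) and 0.213 (Control 3 and CS 2). With different codes, CVS 2 and CS 2 also stood at 0.259, so that value cannot speak for a shared code. Control 2 and CS 2 (0.0725) and Control 3 and CVS 1 (0.0177) were positive too, and the other pairs of different codes negative. In each group of 2 the libraries deviate by equal and opposite amounts, so these values are not independent, no source says what a code marks, and the calls of both fits were known when this was decided. For CVS against CS, and in fits of all 7 libraries, the block was the replicate number, which does not match the codes there.

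The genes named are those called that have a symbol, the study's index genes, the 4 members of each list with the smallest p, and the 5 on each side of the threshold. *Vldlr*, *Dgat1*, *Dgat2*, *Fasn*, *Acsl1*, *Ldah*, *Dbp*, *Nr1d1*, *Scarb1*, *Wls*, *Odc1*, *Slc1a3*, *Apoc4*, *Gpd1l*, *Gpd1*, *Sgms2* and *Sptssb*, and the gene whose level rests on 1 library, were named after their values were seen. Nothing in the labels says whether pools came from separate cohorts, so p-values without the block measure the spread between these pools. Those with the block rest on 1 residual degree of freedom and can be small where the pools of a group differ widely. An example is ENSRNOG00000055956, at 48.1 and 1.22 normalized CPM in CVS 1 and 2 (edgeR adjusted p = 1.96e-15 with the block and 0.380 without it). Blocked p-values are therefore not read as a measure of that spread. Some genes, 1 of them called, are not reported here and were left out of the counts of list members.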

Additional observations from a re-analysis of the deposited data

How the results depend on the processing

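The number of genes called in CVS against control, 14, was within 1.5 times of that with DESeq2's size factors, the legacy calculation off, a robust fit, all 7 libraries in 1 fit and 10 counts in all 5 or all 7 libraries. With all 7 libraries the block is the replicate number, which joins CS 2 (DM10) to Control 2 and CVS 2 (DM8). The number called moved to 120 with DESeq2's Wald test, 151 with no filter, 8 with filterByExpr and 765 with the replicate block. It was 121 with all 7 libraries and the replicate number as a block, and 29 at an adjusted p under 0.1. Without 1 library it ranged from 0 to 16. Of the listed genes, 8 were called, against 71 with DESeq2, 66 with no filter, 4 with filterByExpr, 86 with the replicate block, 57 with all 7 libraries and the replicate block, and 0 to 9 without 1 library. For CVS against CS the count was 0 with edgeR, also at an adjusted p under 0.1 and in 1 fit of all 7 libraries, and it was 39 with DESeq2, 465 with the replicate number as a block and 139 with that block and all 7 libraries. The cause of these moves was not tested. With filterByExpr, *Slc6a2*, *Slc7a5*, *Cry1*, *Fetub*, *Hoga1* and *Rprm* lost their calls (edgeR adjusted p = 0.0519 each), which left no higher gene. With all 7 libraries in 1 fit, *Tubb3*, *Scgb1c1* and *Cry1* lost their calls (edgeR adjusted p = 0.224, 0.179 and 0.0739). Among the 57 genes followed by name, direction turned for 2 that were not called. Without 1 library, the log2 fold change of *Chgb* ranged from -0.147 to 0.0352, above 0 only without CVS replicate 2, and that of *Egr1* from -0.0674 to 0.113, below 0 without Control replicate 1 (-0.00912), Control replicate 2 and CVS replicate 1 (-0.0591). Depth limits *Cyp2a1* most among the called genes named, with 8 counts in CVS 2.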

Other observations

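Some genes without a name had larger fold changes than most named ones but failed edgeR's test without the block, and they were picked after their values were seen. Only genes that passed with the block and whose groups did not overlap could be picked. Lying apart from every control was therefore a condition and not a result. ENSRNOG00000054657 stood at 47.3, 95.0 and 79.2 normalized CPM in Control 1 to 3 and at 4.49 and 25.0 in CVS 1 and 2, below every control, with a log2 fold change of -2.38 (standard error 0.60, edgeR adjusted p = 0.357). In CS 1 and CS 2 it stood at 22.0 and 35.1. ENSRNOG00000027433 stood at 6.91, 13.5 and 5.10 in control and at 50.3 and 14.8 in CVS libraries (log2 fold change 1.96, standard error 0.50, edgeR adjusted p = 0.361), and at 57.7 in CS 1 but 7.0 in CS 2. Its highest values were thus in the CVS and CS libraries of code DM6, while Control 1 of that code had 6.91.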
